A study of Mus musculus with 12 samples.

Results

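The chemokine genes *Ccl1*, *Ccl3*, *Ccl4*, *Ccl5*, *Xcl1* and *Cxcl10* were followed across 12 RNA-Seq libraries of mouse CD4 T blast cells (TB). These 6 genes were chosen by name out of 24439 gene names in the tables, and all 6 passed the filter on low values. CD4 T cells were purified with CD4 microbeads from spleens of C57BL/6 C42 mice, which were back-crossed to C57BL/6J and carry a transgene of the human IL3/CSF2 locus. They were made into blasts with 2 µg/ml Concanavalin A for 40 h and expanded with 50 U/ml IL-2, for about 2 days by the labels and 30 h by the methods. For the last 16 h they were kept in IL-2 (TB IL-2) or without it (TB IL-2nil). Part of each was then stimulated for 2 h with PMA and calcium ionophore (PMA/I), giving TB+ IL-2 and TB+ IL-2nil, with 3 libraries in each of the 4 groups. All 4 groups thus share the transgene, the Concanavalin A step and the first period in IL-2. PMA/I acts inside the cell and bypasses the T cell receptor, which limits it as a model of antigen.

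Chemokines are small secreted proteins that guide leukocytes through G protein coupled receptors. CCL3 and CCL4 (MIP-1 alpha and beta) and CCL5 (RANTES) attract inflammatory cells, and CCL3 and CCL5 act on CCR1. CCL1 acts on CCR8, XCL1 (lymphotactin) acts on XCR1 of cross-presenting dendritic cells, and CXCL10 (IP-10) is an interferon-induced ligand of CXCR3. In T cells, NFAT, AP-1 and NF-kB factors activated by calcium and protein kinase C signals are known to switch on many of these genes, whereas *Ccl5* is known as a late, slowly induced gene. IL-2 signals through STAT5.

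In the mm9 build, which the authors used, 4 of these genes are on chromosome 11. The protein-coding models (GENCODE M1) were *Ccl1* at chr11:81990159-81993316, *Ccl5* at chr11:83339280-83344020 and *Ccl3* at chr11:83461346-83462857 on the minus strand, and *Ccl4* at chr11:83476086-83478185 on the plus strand. *Ccl3* and *Ccl4* were neighbours that pointed away from each other, 13.2 kb apart, and *Ccl5* was 117 kb from *Ccl3*. *Xcl1* was at chr1:166861775-166865658 and *Cxcl10* at chr5:92775664-92777915, both on the minus strand.

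The promoters of 4 of the 6 genes, those held in the RefSeq table used here, are shown to let the sequences of *Ccl1*, *Ccl3* and *Xcl1* be compared with that of *Cxcl10*, whose mRNA stayed at a lower level after PMA/I. They are the 250 bases before the RefSeq start in GRCm38.p6, all on the minus strand and read 5′ to 3′, at chr11:82179813-82180062 for *Ccl1*, chr11:83649379-83649628 for *Ccl3*, chr1:164935523-164935772 for *Xcl1* and chr5:92348890-92349139 for *Cxcl10*. Capitals mark GGAAA, the core bound by NFAT, or its reverse complement TTTCC.
Ccl1: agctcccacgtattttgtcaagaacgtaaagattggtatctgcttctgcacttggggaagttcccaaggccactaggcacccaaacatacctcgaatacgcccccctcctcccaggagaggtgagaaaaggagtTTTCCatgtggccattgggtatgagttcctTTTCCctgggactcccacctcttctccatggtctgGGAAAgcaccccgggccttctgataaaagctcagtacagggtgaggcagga
Ccl3: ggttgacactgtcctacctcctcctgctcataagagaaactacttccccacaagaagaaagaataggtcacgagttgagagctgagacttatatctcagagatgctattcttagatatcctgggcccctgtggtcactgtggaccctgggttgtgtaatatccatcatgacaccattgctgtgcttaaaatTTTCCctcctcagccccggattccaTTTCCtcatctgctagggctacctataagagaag
Xcl1: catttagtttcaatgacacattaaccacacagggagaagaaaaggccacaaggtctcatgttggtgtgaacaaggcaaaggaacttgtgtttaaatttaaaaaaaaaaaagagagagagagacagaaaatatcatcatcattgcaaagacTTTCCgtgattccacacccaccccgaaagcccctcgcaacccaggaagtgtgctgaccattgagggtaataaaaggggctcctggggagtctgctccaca
Cxcl10: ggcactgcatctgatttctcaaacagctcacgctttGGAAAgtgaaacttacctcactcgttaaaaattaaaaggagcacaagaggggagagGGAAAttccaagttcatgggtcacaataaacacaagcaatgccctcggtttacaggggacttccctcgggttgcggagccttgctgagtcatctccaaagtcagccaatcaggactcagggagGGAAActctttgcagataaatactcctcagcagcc
GGAAA was found on either strand at 3 positions for *Ccl1*, 2 for *Ccl3*, 1 for *Xcl1* and 3 for *Cxcl10*. Of 32851 promoter windows of the same length, 55.6% held at least 1 such match, 21.4% at least 2 and 6.39% at least 3. The AP-1 motif TGANTCA was found 74 bases before the start of *Cxcl10* and in none of the other 3 windows, and 6.75% of all windows held it. A form of the interferon-stimulated response element, GAAA followed after 2 bases by GAAA, was also found in the *Cxcl10* window, 213 bases before the start, where it overlapped a GGAAA match, and 2.98% of all windows held it. The STAT motif TTCNNNGAA was found in none of the 4 windows and in 7.02% of all windows. Each motif was searched on both strands, and a match is a description of the letters, not of binding.

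The libraries labelled TB IL-2nil replicate 3 and TB+ IL-2 replicate 3 stood against their labels. The levels of *Il2*, the usual check of PMA/I, were 3539 TPM in the former and 0.997 TPM in the latter, whereas the other TB libraries had at most 4.17 TPM and the other TB+ libraries at least 4116 TPM. Both were placed in each other's group, as the authors did in their supplementary table of these values, and each is called by the group in which it is placed from here on. Relative depth, read from the low values, ranged from 0.409 to 1.25 between libraries. Markers of CD4 T cells (*Cd4*, *Cd3d*, *Cd3e*, *Cd3g* and *Cd28*) summed to 1068 to 2044 TPM. Those of NK cells summed to at most 0.303 TPM, with *Ncr1* and *Klra8* listed at 0, those of myeloid cells to at most 4.88 TPM, with *S100a8* and *S100a9* listed at 0, and those of stroma to at most 0.354 TPM. *Sox13*, the 1 listed marker of 3 for gamma delta T cells, reached 0.253 TPM. B cell markers summed to 23.2 to 29.6 TPM in TB IL-2nil and to at most 12.7 TPM in the other groups. The CD8 T cell markers *Cd8a* and *Cd8b1* summed to 6.91 to 31.9 TPM and were highest in replicate 1 of each group (22.0 to 31.9 TPM). In such bulk libraries, fewer cells with an mRNA and less mRNA per cell cannot be told apart.

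Before PMA/I, *Ccl5* was the most abundant of the 6 mRNAs, and the other 5 were near the limit of detection. *Ccl5* mRNA was at 11.3, 27.9 and 21.9 TPM in TB IL-2 and at 28.7, 36.5 and 65.9 TPM in TB IL-2nil. The 2 groups did not overlap. The difference of TB IL-2 from TB IL-2nil was -1.07 on the log2 scale (SE 0.38, limma adjusted P = 0.0446), which was under the 3-fold limit. With each library left out in turn it was -1.33 to -0.71 (adjusted P = 0.0338 to 0.162), and without both libraries placed against their labels it was -0.73 (adjusted P = 0.191). *Cxcl10* went the other way, with 1.92, 1.55 and 3.05 TPM in TB IL-2 and 0.416, 0 and 0.554 TPM in TB IL-2nil. It was higher in each library with IL-2 than in any without (log2 difference 1.26, SE 0.24, adjusted P = 0.00221), also under the 3-fold limit. After correction for relative depth, its TB IL-2nil values were 1, 0 and 1.32 times its smallest value above 0. The difference thus rests on values near the limit of detection.

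*Ccl1*, *Ccl3*, *Ccl4* and *Xcl1* were barely detected before PMA/I. *Ccl1* was at 3.70, 0.468 and 0 TPM in TB IL-2 and at 2.70, 2.25 and 0.745 TPM in TB IL-2nil. *Ccl4* was at 1.09, 0.324 and 0.423 TPM with IL-2 and at 0.527, 0 and 0.259 TPM without. *Ccl3* and *Xcl1* were above 0 in replicate 1 of each of the 2 groups, at 0.144 and 0.624 TPM for *Ccl3* and 1.07 and 0.390 TPM for *Xcl1*, and were listed at 0 in the other 4 libraries. After correction for relative depth, the values of *Ccl3*, *Ccl4* and *Xcl1* above 0 lay within 0.113 of whole multiples of the smallest, from 1 to 6 times it. These values would thus stand for 1 to 6 fragments if the smallest stood for 1. For none of these 4 genes could a difference between TB IL-2 and TB IL-2nil be detected at this depth, and their log2 differences had 95% intervals from -1.73 to 0.66 for *Ccl1*, from -1.12 to 0.78 for *Ccl3*, from -0.77 to 1.46 for *Ccl4* and from -0.97 to 1.35 for *Xcl1*. On the log2(TPM + 1) scale, none of the 6 genes passed 3-fold in this comparison, against 4.69% of 12442 genes that were higher with IL-2 and 2.73% that were lower. With a pseudocount of 0.1, *Cxcl10* passed it (log2 difference 2.76, adjusted P = 0.00606), again resting on its low TB IL-2nil values.

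**Figure D1:**
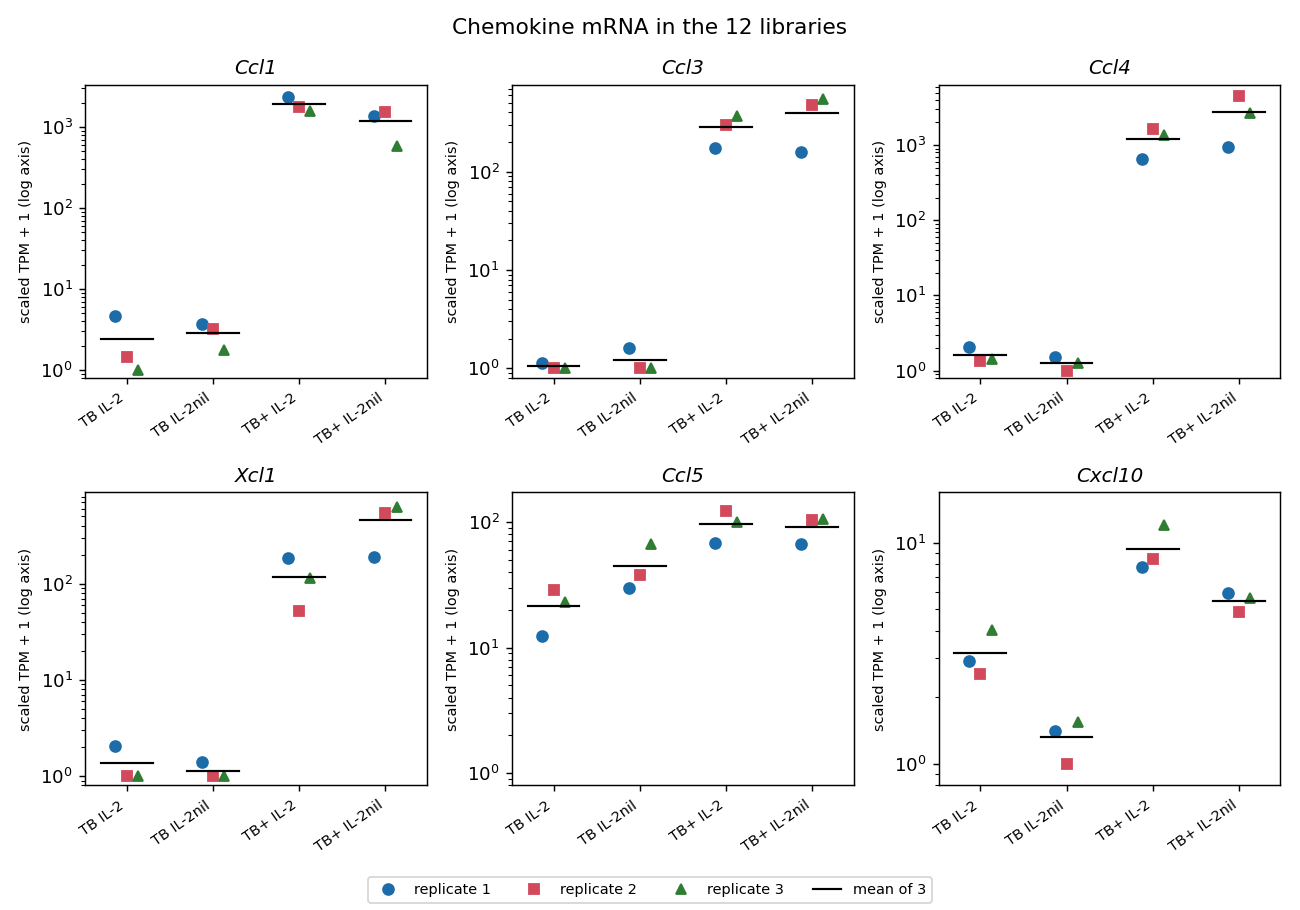
Level of each chemokine mRNA in the 12 libraries by group, as upper-quartile scaled TPM plus 1 on a log axis that differs between panels. Points are libraries, shaped by replicate number, and bars are means of 3 libraries. *Ccl1*, *Ccl3*, *Ccl4* and *Xcl1* lie at 0 to 3.70 TPM before PMA/I and at 50.6 to 4509.8 TPM after it, whereas *Ccl5* and *Cxcl10* move less.

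After PMA/I for 2 h, *Ccl1*, *Ccl3*, *Ccl4* and *Xcl1* rose in both IL-2 states from near 0. In TB+ libraries *Ccl1* ranked 59 to 216 and *Ccl4* 28 to 218 among all gene names by level, and *Xcl1* 205 to 2306. The 6 genes summed to 19.2 to 67.5 TPM before PMA/I and to 2734 to 7189 TPM after it. In the unscaled tables this was 0.159% to 0.582% of all FPKM in TB+ libraries, against at most 0.00699% in TB libraries. With IL-2 kept, 5 of the 6 genes rose over 3-fold at an adjusted P under 0.05, against 3.94% of all genes higher and 3.1% lower. The other, *Cxcl10*, lay next to that limit on the log2(TPM + 1) scale. Without IL-2, 5 of 6 rose, all but *Ccl5*, against 7.78% of all genes higher and 10.7% lower. *Ccl3*, counted in both, was at most 0.624 TPM in TB libraries. It passed the filter only through TB+ libraries where it is high, so its calls are no independent support. The median log2 difference of the 6 genes was 7.17 with IL-2 and 8.35 without, and that of all genes was -0.22 and -0.38. Without scaling beyond TPM, the calls over all genes in the second comparison split into 638 higher and 2539 lower, and with quantile normalization into 1138 and 810, where the scaling used here gave 968 and 1328. In the first comparison quantile normalization gave 537 and 231, where the scaling used here gave 490 and 386. With the 2 libraries as labelled, none of the 6 genes passed in either comparison, and without both libraries 5 of 6 rose in each.

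*Ccl1*, the CCR8 ligand, reached 2361, 1741 and 1593 TPM in TB+ IL-2 and 1381, 1548 and 586 TPM in TB+ IL-2nil. Every stimulated library lay far above every unstimulated one. The log2 difference was 9.94 with IL-2 (SE 0.54, limma adjusted P = 5.18e-07), the highest but 2 of 12442 genes, and 8.61 without (SE 0.54, adjusted P = 8.62e-07). *Ccl1* was the most abundant of the 6 in TB+ IL-2, at 1898 ± 407 TPM (SD, n = 3), but its range overlapped that of *Ccl4*.

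*Ccl4*, which encodes MIP-1 beta, reached 655, 1659 and 1349 TPM in TB+ IL-2 and 938, 4509.8 and 2707 TPM in TB+ IL-2nil. Replicate 1 was the lowest of its group in both. The log2 difference was 9.49 with IL-2 (SE 0.51, adjusted P = 4.57e-07) and 10.82 without (SE 0.51, adjusted P = 1.24e-07), where it ranked as number 1 of 12442 genes. In TB+ IL-2nil *Ccl4* had the highest mean of the 6 genes, 2718 ± 1786 TPM (SD, n = 3), again with a range that overlapped that of *Ccl1*.

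*Ccl3*, which lies next to *Ccl4* and encodes the CCR1 ligand MIP-1 alpha, reached 173, 299.8 and 371 TPM in TB+ IL-2 and 157, 477 and 544 TPM in TB+ IL-2nil. Its levels were several times under those of *Ccl4* in each of the 6 libraries, with *Ccl3* to *Ccl4* ratios of 0.181 to 0.275 with IL-2 and 0.106 to 0.201 without. The log2 difference was 8.01 with IL-2 (SE 0.43, adjusted P = 4.91e-07) and 8.20 without (SE 0.43, adjusted P = 2.63e-07). Since *Ccl3* passed the filter only through TB+ libraries, these P-values give no independent support.

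*Xcl1*, lymphotactin, reached 185, 50.6 and 113 TPM in TB+ IL-2 and 187, 548 and 633 TPM in TB+ IL-2nil. All stimulated libraries were again above all unstimulated ones. The log2 difference was 6.34 with IL-2 (SE 0.53, adjusted P = 1.18e-05) and 8.50 without (SE 0.53, adjusted P = 7.89e-07). These 4 genes were at or near 0 before PMA/I. Their log2 differences, with the ranks and medians drawn from them, thus depend on the pseudocount and are no measure of the fold.

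*Ccl5* rose less, from a level that was already detected. It reached 66.7, 121 and 98.5 TPM in TB+ IL-2 and 65.1, 102.0 and 103.5 TPM in TB+ IL-2nil. With IL-2 the groups did not overlap and the log2 difference was 2.22 (SE 0.38, adjusted P = 0.00130). Without IL-2 the groups overlapped, since the highest unstimulated library (65.9 TPM) passed the lowest stimulated one, and the log2 difference was 1.09 (SE 0.38, adjusted P = 0.0280), under 3-fold. Within each replicate number *Ccl5* was higher after PMA/I, by 4.36 to 5.92 times with IL-2 and by 1.57 to 2.79 times without.

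*Cxcl10*, the CXCR3 ligand, stayed low throughout, with 6.75, 7.43 and 11.04 TPM in TB+ IL-2 and 4.91, 3.85 and 4.60 TPM in TB+ IL-2nil. These were the lowest levels of the 6 genes in each TB+ library. With IL-2, the level after PMA/I was 3.52, 4.79 and 3.62 times that before it in replicates 1, 2 and 3. The 1 TPM added before the log2 step makes such a change of a low gene smaller. The log2 difference was 1.57 with IL-2 (SE 0.24, adjusted P = 0.000639), next to the 3-fold limit of 1.58, and it passed that limit, so that all 6 genes were called, under 8 alternatives. These were quantile normalization (1.85), a pseudocount of 0.1 (1.92), no filter on low values (1.69), removal of short non-coding RNAs (1.68), and leaving out TB IL-2 replicate 3 (1.76), TB+ IL-2 replicate 1 (1.69) or 2 (1.63), or the 4 libraries numbered 1 (1.65). Without IL-2 it was 2.06 (SE 0.24, adjusted P = 3.23e-05). That estimate rests on TB IL-2nil values of 0.416, 0 and 0.554 TPM, near the limit of detection, and is no measure of the fold. In each IL-2 state the stimulated libraries were all above the unstimulated ones.

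**Figure D2:**
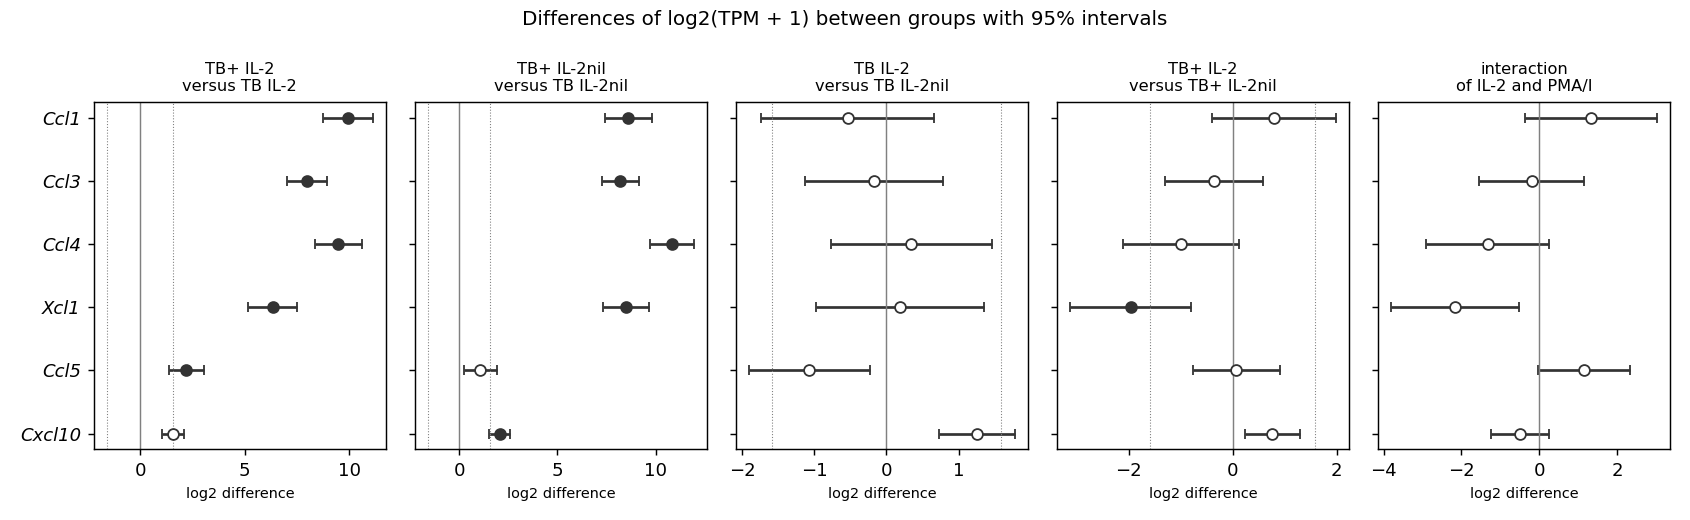
Log2 differences of the 6 genes in the 4 comparisons and in the interaction, on the log2(TPM + 1) scale. Points are limma estimates with 95% intervals over 12 libraries, filled where the difference was called, and dotted lines mark 3-fold in the 4 comparisons. The axis range differs between panels. The estimates for PMA/I run from 1.09 to 10.82, and with IL-2 against without IL-2 in TB+ cells *Xcl1* is the filled point, at -1.97.

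Between TB+ IL-2 and TB+ IL-2nil, *Xcl1* was lower with IL-2 and no other of the 6 genes was called. This is 1 of 6, against 0.41% of all genes lower and 3.21% higher. The TB+ IL-2 libraries (50.6 to 185 TPM) were all under the TB+ IL-2nil libraries (187 to 633 TPM), and the log2 difference was -1.97 (SE 0.53, limma adjusted P = 0.0234). The difference was not seen in replicate 1, where *Xcl1* without IL-2 was 1.01 times its level with IL-2, whereas it was 10.8 times in replicate 2 and 5.59 times in replicate 3. In replicate 1, *Cd8a* and *Cd8b1* summed to 29.5 TPM with IL-2 and 22.0 TPM without, against 7.27 to 15.5 TPM in the other 4 TB+ libraries, and the part of this in the *Xcl1* values was not tested. Short non-coding RNAs took 22.2% to 27.5% of the FPKM in TB+ IL-2 and 33.0% to 53.2% in TB+ IL-2nil, and with these genes removed before TPM were made the difference was -1.99 (adjusted P = 0.0245). Without the 4 libraries numbered 1 the log2 difference was -2.94 (adjusted P = 0.00824). The call for *Xcl1* was lost without TB+ IL-2 replicate 2 (-1.47, adjusted P = 0.0846) or replicate 3 (-2.04, 0.0600), and without TB+ IL-2nil replicate 2 (-1.75, 0.0682) or replicate 3 (-1.64, 0.0761). It was also lost without both libraries placed against their labels (-2.04, adjusted P = 0.0839), with no scaling beyond TPM (-1.57, 0.115), with a pseudocount of 0.1 (-1.98, 0.192) and in a fit of these 2 groups alone (-1.97, 0.0933).

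The other 5 genes did not move together with IL-2. *Ccl4* was at a lower level with IL-2 in each of the 3 replicate numbers, where its level without IL-2 was 1.43, 2.72 and 2.01 times that with IL-2, but the group ranges overlapped and the test was not passed (log2 difference -0.99, 95% interval -2.11 to 0.13, limma adjusted P = 0.193). Without TB+ IL-2nil replicate 1 its difference was -1.62 and was called (adjusted P = 0.0274). *Ccl1* stood on the other side, at 1.71, 1.12 and 2.72 times the level without IL-2, and its groups did not overlap, but the difference missed the threshold (0.79, 95% interval -0.40 to 1.99, adjusted P = 0.325). *Cxcl10* was at 1.37, 1.93 and 2.40 times the level without IL-2, with groups that did not overlap, and its difference of 0.76 passed the adjusted P but not 3-fold (SE 0.24, adjusted P = 0.0424). *Ccl3* (-0.36, 95% interval -1.31 to 0.59) and *Ccl5* (0.07, 95% interval -0.77 to 0.91) had overlapping groups and replicate numbers on both sides.

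**Figure D3:**
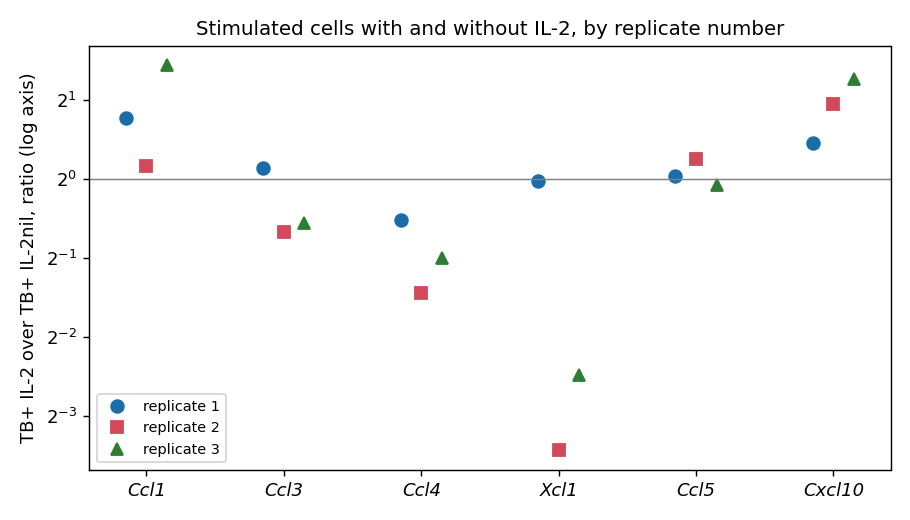
Ratio of the level in TB+ IL-2 to that in TB+ IL-2nil within each replicate number, on a log axis where 1 means no difference. *Ccl1* and *Cxcl10* lie above 1 and *Ccl4* below 1 in all 3 replicate numbers, and *Xcl1* lies at 0.986 in replicate 1, 0.0924 in replicate 2 and 0.179 in replicate 3.

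The make-up of the chemokine mRNA in stimulated cells was mostly that of *Ccl1* and *Ccl4*. *Ccl1* made up 68.5%, 44.9% and 45.0% of the summed TPM of the 6 genes in TB+ IL-2 and 50.5%, 21.5% and 12.8% in TB+ IL-2nil. *Ccl4* made up 19.0%, 42.8% and 38.2% with IL-2 and 34.3%, 62.7% and 59.1% without. Within a library, the ratio of *Ccl1* to *Ccl4* was 3.60, 1.05 and 1.18 with IL-2 and 1.47, 0.343 and 0.217 without. It was higher with IL-2 within each replicate number, but the groups overlapped, with a mean difference of 1.78 in the log2 ratio and an exact two-sided permutation P of 0.3 (adjusted 0.375 over 5 ratios). The ratio of *Ccl5* to *Ccl4* was 0.102, 0.0732 and 0.0730 with IL-2 and 0.0695, 0.0226 and 0.0382 without, which did not overlap (mean log2 difference 1.06, exact permutation P = 0.1, adjusted 0.333). With 3 libraries against 3, 0.1 is the smallest P such a test can give. For the ratios of *Ccl3*, *Xcl1* and *Cxcl10* to *Ccl4*, the mean log2 differences were 0.63, -0.99 and 1.88, with exact permutation P of 0.2, 0.4 and 0.2 (adjusted 0.333, 0.4 and 0.333). Within replicate numbers, the ratios of *Ccl1*, *Ccl3*, *Ccl5* and *Cxcl10* to *Ccl4* were each higher with IL-2 in 3 of 3 pairs, and that of *Xcl1* in 1 of 3. An exact paired permutation of 3 pairs cannot go below a two-sided P of 0.25, which these 4 ratios had. All 5 ratios share *Ccl4*, which was itself lower with IL-2 in each replicate number, so they are not independent results. The levels of *Ccl3* and *Ccl5* themselves had replicate numbers on both sides.

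**Figure D4:**
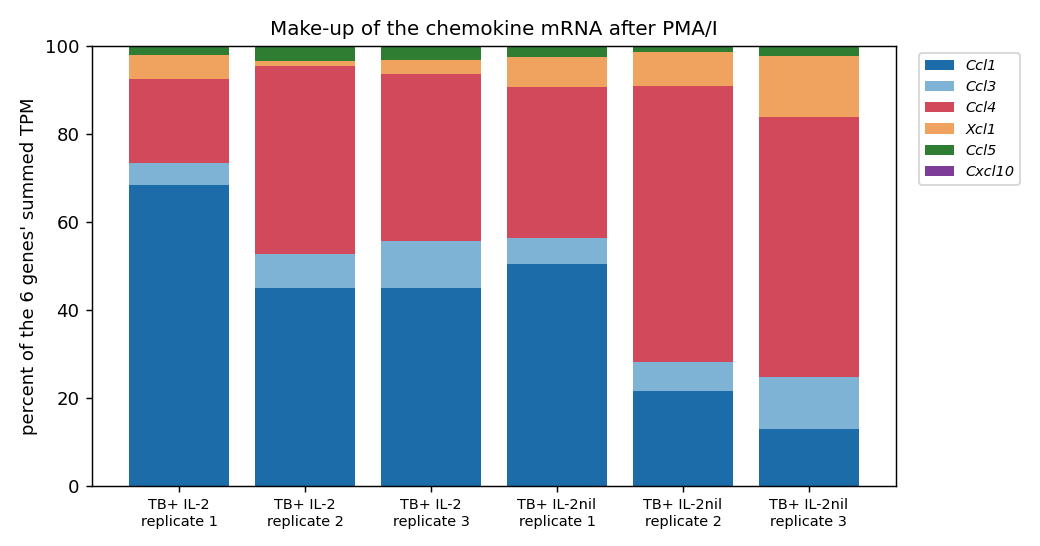
Share of each gene in the summed TPM of the 6 chemokines in the 6 TB+ libraries, in percent. The *Ccl1* share runs from 44.9% to 68.5% with IL-2 and from 12.8% to 50.5% without, and the *Cxcl10* share is at most 0.312% and too thin to see.

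The interaction asks whether PMA/I acted differently in cells with and without IL-2. None of the 6 genes passed an adjusted P of 0.05, against 1.57% of all genes with a positive and 2.66% with a negative interaction. The estimates were -2.16 for *Xcl1* (SE 0.75, limma adjusted P = 0.121), -1.33 for *Ccl4* (SE 0.72, adjusted P = 0.294), 1.33 for *Ccl1* (SE 0.77, adjusted P = 0.327) and 1.14 for *Ccl5* (SE 0.54, adjusted P = 0.234), and those of *Ccl3* and *Cxcl10* were -0.19 and -0.49. *Ccl1*, *Ccl3*, *Ccl4* and *Xcl1* were at or near 0 before PMA/I. Their interactions are thus their TB+ differences (0.79, -0.36, -0.99 and -1.97) with differences between barely detected values taken off. For these genes they are no separate test of the response to PMA/I. With the replicate block, *Ccl5* passed (1.14, limma adjusted P = 0.0457), with a larger estimated rise in cells with IL-2, from the lower level described above. The same fit called 760 of 12442 genes with a positive and 718 with a negative interaction, where the fit without the block called 195 and 331. The call of 1 of 6 genes is given beside these numbers and is not read further.

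Among receptor mRNAs of these ligands, *Ccr8* and *Cxcr3* were at 3.40 TPM or more in every library. Of 5 receptor genes, 3 rose with PMA/I with IL-2 (*Ccr1*, *Ccr3* and *Cxcr3*) and 3 without (*Ccr1*, *Ccr8* and *Cxcr3*), against 3.94% and 7.78% of all genes. In TB libraries *Ccr1* was at most 0.487 TPM and *Ccr3* at most 0.290 TPM. Both passed the filter only through TB+ libraries where they are high, so their calls and P-values are no independent support. None of the 5 was called between the IL-2 states, where 4.69% of all genes were higher and 2.73% lower with IL-2 in TB cells, and 3.21% and 0.41% in TB+ cells. *Ccr8*, the CCL1 receptor, was at 12.2, 69.4 and 19.6 TPM in TB IL-2, 6.27, 17.8 and 3.40 TPM in TB IL-2nil, 43.2, 59.7 and 91.0 TPM in TB+ IL-2 and 129, 136 and 195 TPM in TB+ IL-2nil. It rose without IL-2 (log2 difference 4.17, SE 0.62, limma adjusted P = 0.000172), where the groups were far apart. With IL-2 its groups overlapped (1.23, SE 0.62, adjusted P = 0.147), and the interaction was -2.94 (adjusted P = 0.0830). *Ccr1*, a receptor of CCL3 and CCL5, was at most 0.487 TPM before PMA/I and at 4.77 to 9.85 TPM with IL-2 and 10.3 to 14.6 TPM without IL-2 after it, and rose in both (2.50, adjusted P = 1.81e-05, and 3.53, adjusted P = 8.80e-07).

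*Cxcr3*, the CXCL10 receptor, was the most abundant of the 5 receptor mRNAs in TB+ cells, at 154 to 194 TPM with IL-2 and 222 to 368 TPM without, and rose in both (log2 difference 2.02, limma adjusted P = 0.0147, and 1.63, adjusted P = 0.0220). Both calls of *Cxcr3* were lost without the 4 libraries numbered 1 (1.52 and 1.18). With IL-2, its call was also lost without TB IL-2 replicate 1 (1.49) or TB+ IL-2 replicate 2 (1.92). Without IL-2, it was lost without TB IL-2nil replicate 1 (0.97), TB+ IL-2nil replicate 2 (1.48) or replicate 3 (1.57), with no scaling beyond TPM (1.08) and with quantile normalization (1.28). *Ccr3*, an eosinophil receptor that also binds CCL5, was called with IL-2 (2.21, adjusted P = 0.0198), but its TB+ IL-2 libraries ranged from 0.585 to 13.3 TPM and the call was lost without TB+ IL-2 replicate 1 (1.43, adjusted P = 0.0615) or replicate 2 (2.18, 0.0583), without TB IL-2 replicate 3 (2.20, 0.0534), without the 4 libraries numbered 1 (1.47, 0.0854) and in a fit of these 2 groups alone (2.21, 0.0655). *Xcr1*, the receptor of XCL1, stayed at 0.424 to 1.42 TPM in all 12 libraries.

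**Figure D5:**
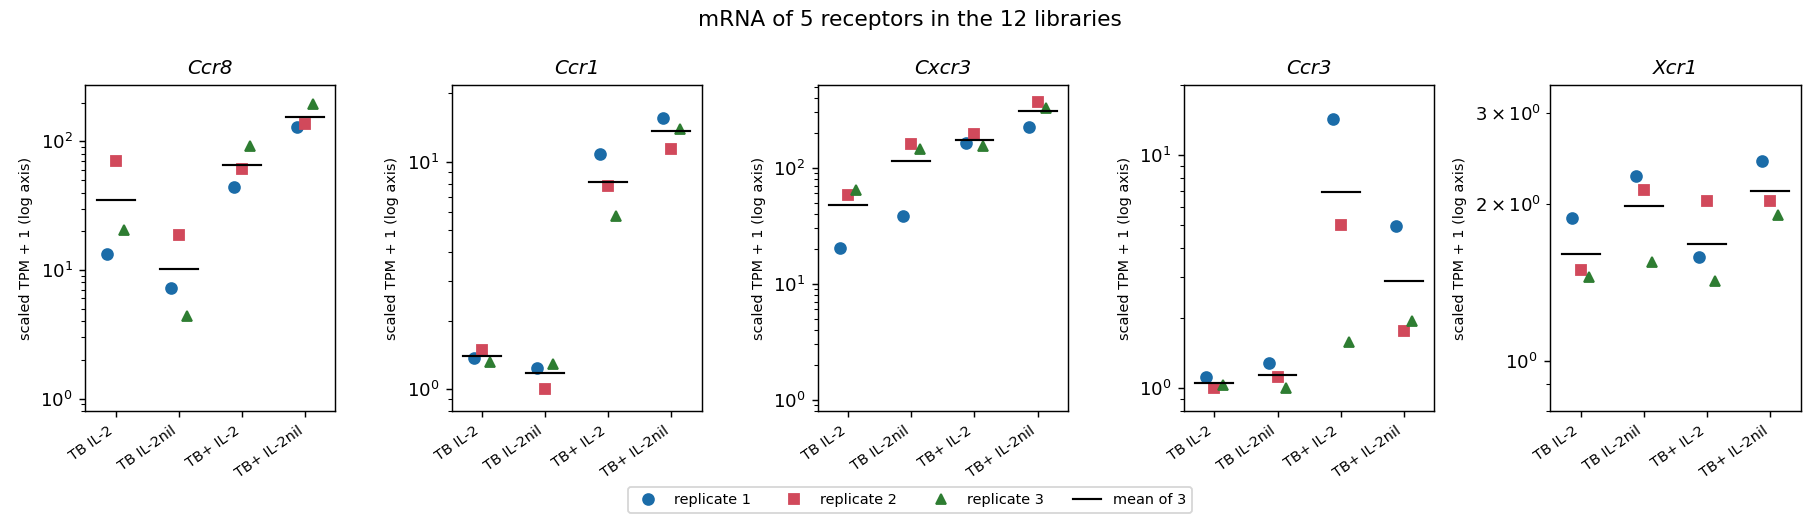
Level of 5 receptor mRNAs in the 12 libraries by group, as upper-quartile scaled TPM plus 1 on a log axis that differs between panels. Points are libraries and bars are means of 3. *Ccr8* without IL-2 rises from at most 17.8 TPM to at least 129 TPM, and *Xcr1* reaches at most 1.42 TPM.

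Of the other 35 chemokine ligand genes in the tables, 10 passed the filter on low values. Of these, *Ccl7* and *Cxcl2* were called higher with PMA/I when IL-2 was kept, and *Cxcl2* and *Cxcl3* without it. All 3 were at 0 in every TB library and passed the filter only through TB+ libraries where they are high, so these calls are no independent support. *Cxcl2*, a neutrophil attractant, was listed at 0 in the 6 TB libraries and was at 117, 13.1 and 6.66 TPM in TB+ IL-2 and 139, 15.3 and 7.02 TPM in TB+ IL-2nil. Replicate 1 was the highest in both groups. The sum of *Cd8a* and *Cd8b1* was also highest in replicate 1, at 29.5 TPM against 7.27 and 9.14 TPM in TB+ IL-2 and at 22.0 TPM against 8.64 and 15.5 TPM in TB+ IL-2nil, and its part in the *Cxcl2* values was not tested. The log2 differences of *Cxcl2* were 4.55 (adjusted P = 0.00639) and 4.72 (adjusted P = 0.00231) in limma. *Cxcl3*, its close relative, had the same order, with 14.997, 2.16 and 0.421 TPM and 26.8, 2.61 and 1.26 TPM, and its call without IL-2 (2.61, adjusted P = 0.0280) was lost without TB+ IL-2nil replicate 1 (1.51, adjusted P = 0.115), without any of the TB IL-2nil libraries (2.61, 0.0600 to 0.0639), without both libraries placed against their labels (2.61, 0.0501), without the 4 libraries numbered 1 (1.51, under 3-fold) and with no filter on low values (2.69, 0.0589). *Ccl22*, a CCR4 ligand, was at 4.03 to 55.9 TPM in all 12 libraries and was called in no comparison.

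*Ccl7*, a ligand of CCR1, CCR2 and CCR3, was at 5.15, 3.13 and 1.88 TPM in TB+ IL-2 and at 0.262, 0.271 and 0 TPM in TB+ IL-2nil, and was listed at 0 in the 6 TB libraries. The 3 TB+ IL-2 libraries were above the other 9. Since *Ccl7* passed the filter only through TB+ IL-2, these levels are given as a description.

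The genes outside the list with the most similar pattern over the 12 libraries were taken by the smallest root mean square difference of mean-centred log2(TPM + 1) values. These were the nuclear receptor gene *Nr4a3* (0.81), *Egr3* (0.83) and the cytokine gene *Il31* (0.86) for *Ccl1*, and *Nr4a3* (0.91), *Nr4a1* (1.14) and *Egr2* (1.15) for *Ccl4*. For *Ccl3* they were *Egr2* (0.69), the TNF family ligand gene *Tnfsf14* (0.71) and *Il21* (0.84), and for *Xcl1* the NF-kB inhibitor gene *Nfkbid* (0.82), *Nr4a2* (0.89) and *Atf3* (0.92). The distance between members was 0.90 for *Ccl3* and *Xcl1* and 1.10 for *Ccl3* and *Ccl4*. *Il31* was listed at 0 in the 6 TB libraries, and its mean was 1194 ± 877 TPM in TB+ IL-2 and 312 ± 206 TPM in TB+ IL-2nil (SD, n = 3). *Atf3* lay on the side of *Xcl1*, with 300.5 ± 68.6 TPM in TB+ IL-2 and 769.8 ± 364 TPM in TB+ IL-2nil. Neither gene was called between the TB+ groups (*Il31* 1.80, limma adjusted P = 0.0582, and *Atf3* -1.26, adjusted P = 0.0160). *Nr4a3*, the closest to both *Ccl1* and *Ccl4*, went against *Ccl1*, at 1655 TPM in TB+ IL-2 and 2602 TPM in TB+ IL-2nil. *Egr3* was at 1665 and 1200 TPM. All were chosen by likeness over these same libraries, so their IL-2 differences are no support. *Ccl5* was closest to *Lag3* (0.36), *Gimap5* (0.40) and *Gramd1b* (0.42), and *Cxcl10* to *Snrpa1* (0.36), *Cep83* (0.37) and *Ybx3* (0.38). For these 2 genes, which varied less, the same distance says less about the pattern, since their own root mean square variation was 1.01 and 1.08 against 3.82 to 5.13 for the other 4.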

How the data were processed

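The deposited values are FPKM, made by the authors from rRNA-depleted, directional, paired-end libraries with Trimmomatic 0.32, HISAT2 2.1.0 on mm9 and StringTie 1.3.3 on RefSeq models, per the labels and methods. They hold no read counts and no normalization between libraries. Relative depth was estimated from the ratios of low FPKM values between libraries, and differed by up to 3.05 times.

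FPKM were converted to TPM by bringing every library to a total of 1000000. The 12442 genes that exceeded 1 TPM in any library were retained, and library upper quartiles (75th percentile) were then equalized. A model of the 4 groups was fitted to log2(TPM + 1) with limma 3.58.1 under R 4.3.3, with 8 residual degrees of freedom. It was also run on simulated data with a common spread for all genes and unpaired libraries. Only genes well above 0 were changed there, so the simulation does not check genes near 0 or paired libraries. The log2(TPM + 1) scale understates changes of low genes. A call needed a change of more than 3-fold plus an adjusted P (Benjamini-Hochberg, all genes) below 0.05, and the interaction needed the adjusted P alone. Levels are upper-quartile scaled TPM, which is per length. Ratios within libraries were tested by exact permutation in scipy 1.17.1.

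In the supplementary table of the study, 10 of 12 columns matched the library of the same label and 2 matched each other's library, namely TB IL-2nil replicate 3 and TB+ IL-2 replicate 3. The labels do not state a pairing by replicate number, but same-numbered libraries deviated together in 18 of 18 pairs (r = 0.101 to 0.531). The main fit and the unpaired permutation of ratios did not use this pairing, and the fit with the replicate block, an alternative, did. The labels do not say whether replicates came from separate animals, so P-values measure the spread between these libraries.

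The members, lists and tests were chosen with earlier results of these data known. Named genes were the 6 members, other chemokine ligands that passed the filter, the receptors *Ccr1*, *Ccr3*, *Ccr8*, *Cxcr3* and *Xcr1*, the 3 genes closest to each member, and *Il2*. A further gene of that rule is not reported here. The alternatives were the placement, pseudocount, filter, scaling, removal of short non-coding RNAs, trend, block, groups fitted and each library left out. Leaving out both exchanged libraries, and the 4 numbered 1, and permuting ratios within replicate numbers were added after seeing the data.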

Additional observations from a re-analysis of the deposited data

Results flagged for a closer look

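*Ccl7* was taken up for a closer look because of its interaction of IL-2 and PMA/I. The interaction was 1.84 on the log2 scale (SE 0.33, limma adjusted P = 0.0198). *Ccl7* reached 1.88 to 5.15 TPM in TB+ IL-2 and at most 0.271 TPM in TB+ IL-2nil, and was listed at 0 before PMA/I. With 0 in every TB library, the interaction is the same value as the difference between the TB+ groups and no separate test of the response to PMA/I. *Ccl7* also passed the filter only through TB+ IL-2, the group where it is high, so its P-value gives no support. The adjusted P was over 0.05 with no scaling beyond TPM (0.0847), without TB IL-2 replicate 2 (0.0519) or 3 (0.0507), without TB IL-2nil replicate 2 (0.0575), without TB+ IL-2 replicate 2 (0.0530), without both exchanged libraries (0.0577) and without the 4 libraries numbered 1 (0.118), with estimates of 1.61 to 2.11. With the libraries as labelled it was 0.914. What lies behind the difference was not tested.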

How the results depend on the processing

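Over 24 alternatives with the 6 genes in 5 results each, 669 of 714 values kept their direction and side of the threshold. Values that stayed uncalled count as kept here. The share thus does not speak for *Xcl1* in TB+ cells, whose call was lost under the alternatives given above. With the libraries as labelled, the numbers of the 6 genes called fell to 0 of 6 for PMA/I with IL-2, for PMA/I without IL-2 and for *Xcl1* in TB+ cells. As labelled, TB IL-2 against TB IL-2nil turned to -3.01 for *Ccl4* and -2.09 for *Xcl1*, and TB+ IL-2 against TB+ IL-2nil to -2.48 for *Ccl1*, -0.12 for *Ccl5* and -0.22 for *Cxcl10*, none of them called. As labelled, the log2 ratio differences were 4.98 for *Ccl5* and 4.56 for *Cxcl10* to *Ccl4*, and those of *Ccl3* and *Xcl1* could not be given, since both were listed at 0 in a library. The number of the 6 genes lower in TB+ IL-2 than in TB+ IL-2nil was 0 with a pseudocount of 0.1, with no scaling beyond TPM, with only the groups compared and without both exchanged libraries, and 0 to 2 with each library left out. A pseudocount of 0.1 gave 1 gene higher in TB IL-2. Small differences that were not called changed sign: *Ccl3* in TB+ cells without scaling (0.032), its interaction with a pseudocount of 0.1 (0.16), without scaling (0.25) and without TB+ IL-2 replicate 1 (0.12), TB+ IL-2nil replicate 2 (0.04) or 3 (0.14), *Ccl3* in TB cells without TB IL-2nil replicate 1 (0.065), *Xcl1* in TB cells without TB IL-2 replicate 1 (-0.16), and *Ccl5* in TB+ cells without TB+ IL-2 replicate 2 (-0.12) or TB+ IL-2nil replicate 1 (-0.15). With each library left out these 4 ran from -0.76 to 0.14, from -0.29 to 0.065, from -0.16 to 0.37 and from -0.15 to 0.31. The replicate block gave 1 of the 6 genes with a positive interaction, *Ccl5* (1.14), and changed no other call of the 6 genes. Over all genes this block gave 760 with a positive and 718 with a negative interaction. Apart from the placement as labelled, the genes called higher and lower over all genes ranged over the alternatives from 414 to 672 and 231 to 798 for PMA/I with IL-2 (490 and 386 as reported), from 638 to 1208 and 810 to 2539 without IL-2 (968 and 1328), from 535 to 743 and 247 to 577 for IL-2 in TB cells (583 and 340), from 297 to 624 and 14 to 119 in TB+ cells (400.0 and 51), and from 0 to 760 and 1 to 718 for the interaction (195 and 331). As labelled they were at most 109 and 146. Without scaling the median log2 difference of all genes for PMA/I without IL-2 was -0.78, against -0.38. Values under about 1 TPM rest on a few fragments, so no difference between them can be read. The causes of these changes were not tested.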
